A study of Mus musculus with 4 samples.

Results

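The genes described here are receptors of the tumour necrosis factor (TNF) superfamily that costimulate T cells or signal their death, with Icos, a costimulator of the CD28 family. They were taken by name: Tnfrsf4, Tnfrsf9, Tnfrsf18, Tnfrsf1a, Tnfrsf1b, Tnfrsf25, Tnfrsf26, Cd27, Fas and Icos. Of these 10 genes, 9 had a probe set under the platform annotation, with 14 probe sets among the 45101 on the array. Tnfrsf26 had no probe set under its name and was not analysed here. The samples were regulatory T cells (Treg cells), the Foxp3-positive CD4 T cells that hold other immune cells in check, from mouse spleen, strain C57BL/6. Of 4 Affymetrix arrays, 2 were labelled Foxo1/3-deficient and 2 wild-type, and the titles number 2 pairs, each with 1 array of either label. For the deficient samples the titles and the design text give Foxo1 and Foxo3, but the genotype entry gives only Foxo1. The sources used here do not give how the deletion was made, nor the ages and numbers of animals, so the p-values measure only the spread between these arrays.

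TNF superfamily receptors are cell-surface proteins that bind trimeric ligands. Those without a death domain, such as OX40, 4-1BB, GITR, CD27 and TNFR2, recruit TRAF adaptors and switch on NF-kB, which supports survival and proliferation of activated T cells. Fas, TNFR1 and DR3 carry a cytoplasmic death domain, through which they can start cell death or, for TNFR1 and DR3, also NF-kB signalling. Treg cells carry OX40, GITR and TNFR2 at rest more than other CD4 T cells do, and gain 4-1BB and more ICOS when they are activated. FoxO transcription factors are active in resting lymphocytes and are excluded from the nucleus by AKT once PI3K signals.

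The deposited values were MAS5 signals on a linear scale, with median signals from 72.0 to 83.4 per array. Foxo1 was not lower but higher on the arrays labelled Foxo1/3-deficient, where its brightest probe set read 6949 and 6697 against 2383 and 1254 on the wild-type arrays. Its log2 difference was 1.97 ± 0.30 (limma adjusted p = 0.0209 without the pair, 9.4e-07 when the pair was blocked). The Foxo1 probe sets 1416981_at (4485 and 4015 against 1161 and 720) and 1416982_at (3133 and 3438 against 786 and 612) were higher too, without overlap. Foxo3 was lower on the labelled-deficient arrays, without overlap, with its brightest probe set at 1425 and 1308 against 1876 and 2635 (log2 -0.70 ± 0.24, limma adjusted p = 0.241, and 0.0127 with the pair as a block) and a second, 1434832_at, at 554 and 521 against 861 and 1001. Foxo1 thus went against the labels and Foxo3 with them. At an adjusted p of 0.05 Foxo1 passed in both fits, and Foxo3 only when the pair was blocked. All directions below are those of the arrays as labelled. Whether these probe sets lie in the deleted part of either gene could not be checked here. The Treg marker Foxp3 read 6504 and 6056 on the labelled-deficient arrays and 6540 and 6285 on the wild-type arrays, and 0 of the 8 Treg markers tested, Ctla4 among them, passed limma's test of the labels in either fit used below or had an unadjusted p under 0.05.

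The receptors did not move in 1 direction. On the labelled-deficient arrays Tnfrsf9, Tnfrsf1b, Tnfrsf4, Tnfrsf18 and Tnfrsf1a had lower mean signals, and Cd27, Fas, Tnfrsf25 and Icos had higher ones. Log2 differences ran from -1.02 for Tnfrsf9 to 0.64 for Cd27, with a median of -0.28 against a median of -0.0034 over all 12115 genes tested. None of the 9 genes passed limma's adjusted p of 0.05 in the fit without the pair, where 2.57% of all genes passed (1.21% higher and 1.35% lower), and 2 of 9, Tnfrsf9 and Cd27, had an unadjusted p under 0.05, against 13% of all genes. With the pair as a block 3 of 9 passed, Tnfrsf9 and Tnfrsf1b lower and Cd27 higher, where 11.6% of all genes passed (6.36% lower and 5.23% higher). This blocked fit has 1 residual degree of freedom and leans on the variance shared across genes more than the other fit does. In both pairs the labelled-deficient array lay on the same side of its wild-type array for 8 of the 9 genes, as for 62.6% of all genes. The labels did not overlap in signal for 4 of the 9, which is near the 41.1% seen over all genes. In these bulk samples, fewer cells of a type and less RNA per cell cannot be told apart.

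**Figure D1:**
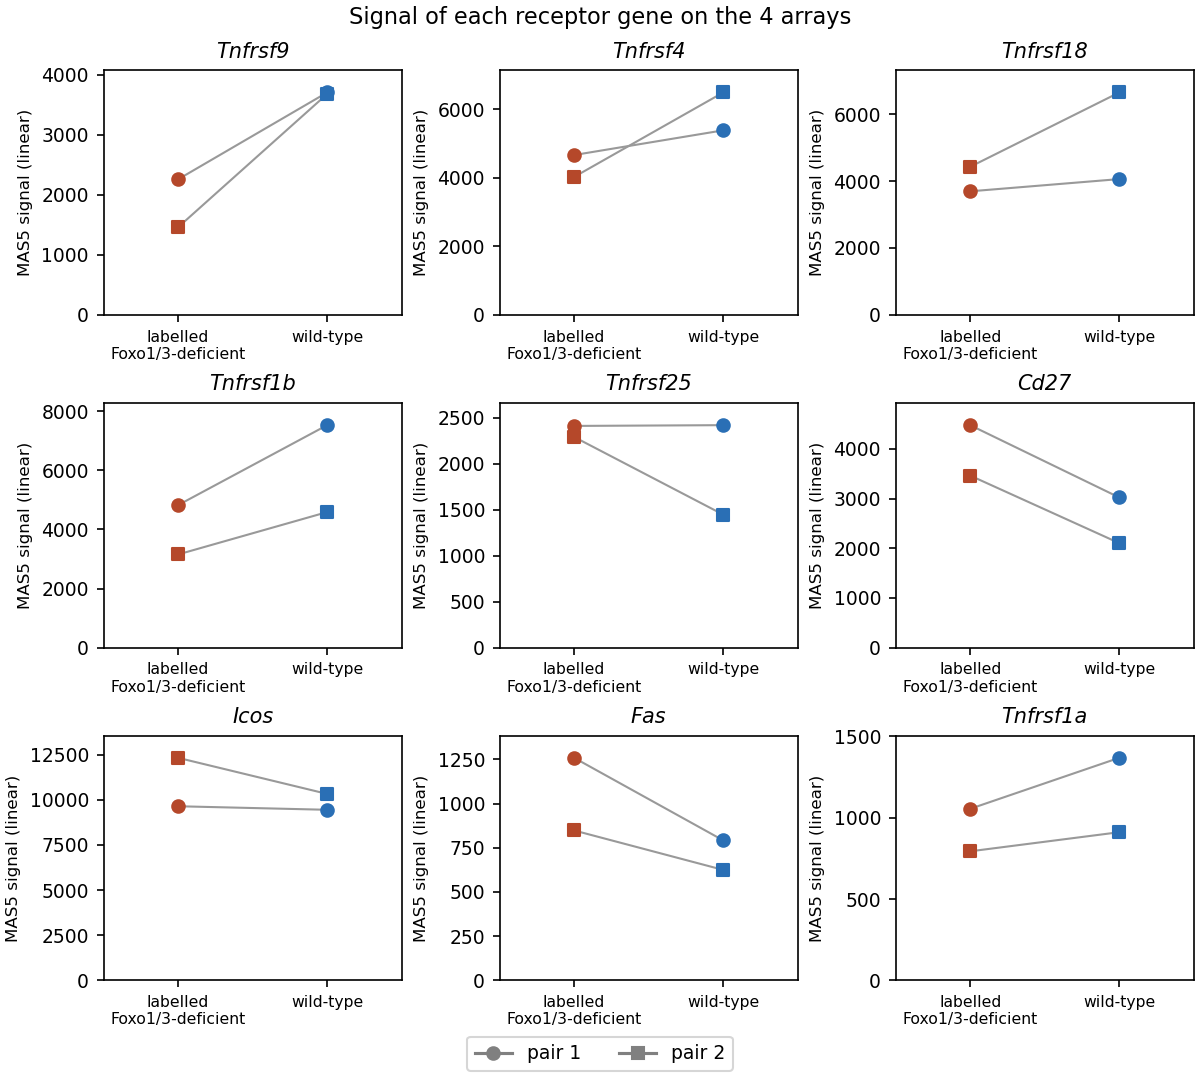
MAS5 signal (linear axis from 0) of the probe set that stands for each of the 9 genes, on the labelled Foxo1/3-deficient arrays at left and the wild-type arrays at right; circles are pair 1, squares pair 2, and a line joins the arrays of a pair. The labels stand apart for Tnfrsf9, with 2257 and 1459 on the labelled-deficient arrays below 3703 and 3678 on the wild-type arrays, and the lines of Cd27 ran nearly parallel.

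The 250 bases before the annotated starts of Tnfrsf9, Tnfrsf1b and Cd27 are shown because these 3 genes passed in the blocked fit, in opposite directions. They are RefSeq sequences of the mouse build GRCm38.p6, 5′ to 3′ on the gene's strand. The table held 10 starts for 8 of the 10 genes, with none for Icos and Tnfrsf26, and 2 starts each for Tnfrsf9 and Tnfrsf25. Capitals mark matches to an AP-1 motif (TGANTCA) or to the NF-kB consensus, searched on both strands.
Tnfrsf9, chr4:150927749-150927998, plus strand: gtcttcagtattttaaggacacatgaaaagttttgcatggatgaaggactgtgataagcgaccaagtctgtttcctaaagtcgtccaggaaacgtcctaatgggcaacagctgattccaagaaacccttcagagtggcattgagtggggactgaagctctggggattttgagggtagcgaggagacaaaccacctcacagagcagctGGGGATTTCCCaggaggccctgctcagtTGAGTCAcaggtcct
Tnfrsf9, chr4:150919905-150920154, plus strand: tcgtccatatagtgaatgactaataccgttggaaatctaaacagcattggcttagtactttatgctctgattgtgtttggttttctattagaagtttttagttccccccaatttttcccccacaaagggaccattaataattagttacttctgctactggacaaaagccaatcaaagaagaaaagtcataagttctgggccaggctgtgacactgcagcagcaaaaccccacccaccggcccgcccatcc
Tnfrsf1b, chr4:145246871-145247120, minus strand: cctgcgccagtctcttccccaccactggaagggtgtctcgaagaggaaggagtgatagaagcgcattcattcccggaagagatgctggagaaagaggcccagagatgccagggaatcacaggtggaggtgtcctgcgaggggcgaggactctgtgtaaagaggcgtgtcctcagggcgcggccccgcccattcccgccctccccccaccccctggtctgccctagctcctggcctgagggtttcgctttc
Cd27, chr6:125237028-125237277, minus strand: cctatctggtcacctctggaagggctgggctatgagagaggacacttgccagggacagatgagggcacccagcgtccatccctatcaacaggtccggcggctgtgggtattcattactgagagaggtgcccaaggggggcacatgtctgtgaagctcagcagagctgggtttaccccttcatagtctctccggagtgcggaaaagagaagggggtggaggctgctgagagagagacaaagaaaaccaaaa
One start of Tnfrsf9 held both motifs, an NF-kB match that ends 33 bases before the start and begins 43 before it, in 2 overlapping frames, and an AP-1 match from 15 to 9 bases before it. The other start of Tnfrsf9, and those of Tnfrsf1b and Cd27, held neither in this window. An AP-1 match stood before 2 of the 10 starts, the other being that of Fas, and in 6.75% of all 32851 promoters. An NF-kB match also stood before 2 of the 10, the other being a start of Tnfrsf25, and in 7.25% of all promoters. The FoxO motif TGTTTAC was in none of the 10 windows and in 3.17% of all promoters. These are matches of letters in a short window and say nothing of binding.

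Tnfrsf9 encodes 4-1BB (CD137), a TRAF-binding receptor that T cells put on their surface after antigen stimulation. Its brightest probe set, 1460469_at, read 2257 and 1459 on the labelled-deficient arrays against 3703 and 3678 on the wild-type arrays. Both labelled-deficient arrays were thus below both wild-type arrays, which were almost equal. The log2 difference, on the log2(signal + 17) scale, was -1.02 ± 0.25 (SE, 95% interval -1.60 to -0.43; limma adjusted p = 0.0922), a signal 0.494 times that of the wild-type arrays. In the blocked fit the adjusted p was 4.6e-04, and Tnfrsf9 then passed. It held rank 446 from the lowest among 12115 genes.

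Both other probe sets of Tnfrsf9 were lower on the labelled-deficient arrays too, in either pair. The probe set 1428034_a_at, whose suffix marks probes that match several transcripts of the gene, read 391 and 450 against 570 and 2095. Its ratio of labelled-deficient over wild-type signal was 0.687 in pair 1 and 0.215 in pair 2, so the size of the difference turned on the wild-type array of pair 2. In the fit over all 27022 kept probe sets it stood at -1.35 ± 0.53 (limma adjusted p = 0.386, and 0.0489 in the blocked fit), where 1460469_at stood at an adjusted p of 0.138, and 0.0140 with the block. The dim 1421481_at, under the filter at a signal of about 40.5 and so not tested, read 33.1 and 10.2 against 63.1 and 42.7. In the blocked probe-set fit 5.13% of all probe sets passed, and 2 of the 13 kept receptor probe sets, both of Tnfrsf9. Without the block none of the 13 passed, where 1.16% of all probe sets did.

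Tnfrsf4 and Tnfrsf18 encode OX40 and GITR, costimulators that Treg cells carry at rest. They are neighbours on chromosome 4 with no protein-coding gene between them. Tnfrsf4 read 4667 and 4027 on the labelled-deficient arrays against 5387 and 6492 on the wild-type arrays. The groups did not overlap, with the pair 1 arrays close to each other at a ratio of 0.866 and those of pair 2 at 0.620. The log2 difference was -0.45 ± 0.20 (SE, 95% interval -0.90 to 0.012; limma adjusted p = 0.405, and 0.0958 in the blocked fit). Tnfrsf18 read 3692 and 4424 against 4057 and 6644. Here the groups overlapped, since the labelled-deficient array of pair 2 lay above the wild-type array of pair 1. The log2 difference was -0.36 ± 0.26 (95% interval -0.97 to 0.25; limma adjusted p = 0.705, and 0.195 with the block), and without wild-type replicate 2 it was -0.0056. For both genes pair 2 showed the wider gap, as it did for Tnfrsf9.

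Tnfrsf1b encodes TNFR2, the TNF receptor without a death domain, which Treg cells carry at high level. Its probe set 1418099_at read 4825 and 3154 on the labelled-deficient arrays against 7533 and 4589 on the wild-type arrays. The groups overlapped, and pair 1 was brighter than pair 2 in both labels, 1.53 times among labelled-deficient and 1.64 times among wild-type arrays. Within the pairs the ratios were close, 0.640 in pair 1 and 0.687 in pair 2. The log2 difference was -0.59 ± 0.30 (SE, 95% interval -1.28 to 0.10; limma adjusted p = 0.501, and 0.0149 in the blocked fit). Leaving out 1 array moved it to -0.23 without wild-type replicate 1, -0.95 without wild-type replicate 2, -0.89 without labelled-deficient replicate 1 and -0.28 without labelled-deficient replicate 2. The other, dim probe set, 1448951_at, read 142 and 22.6 against 55.1 and 38.2 and went opposite ways in the pairs, and on the mean of both probe sets the difference was -0.13. Over all probe sets 1418099_at had an adjusted p of 0.0686 with the block, so its call did not extend to that fit.

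Cd27 encodes CD27, a receptor that naive T cells already carry and that is shed or lost as cells become terminal effectors. It read 4478 and 3463 on the labelled-deficient arrays against 3022 and 2103 on the wild-type arrays. Both labelled-deficient arrays were above both wild-type arrays, and the ratios within pairs were 1.48 and 1.65. The log2 difference was 0.64 ± 0.25 (SE, 95% interval 0.061 to 1.22; limma adjusted p = 0.313), and Cd27 passed in the blocked fit (adjusted p = 0.00882). Over all probe sets the blocked adjusted p was 0.0547, above the threshold, and without wild-type replicate 2 the difference was 0.38, and 0.90 without wild-type replicate 1.

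Tnfrsf25 encodes DR3, a death-domain receptor of T cells that also costimulates Treg cells. It was the 1 gene of the 9 whose pairs disagreed. It read 2412 and 2292 on the labelled-deficient arrays against 2420 and 1447 on the wild-type arrays, so pair 1 was level at a ratio of 0.997 and pair 2 stood at 1.58. The log2 difference of 0.33 ± 0.27 (95% interval -0.31 to 0.96; limma adjusted p = 0.766, and 0.308 in the blocked fit) was -0.042 without wild-type replicate 2.

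**Figure D2:**
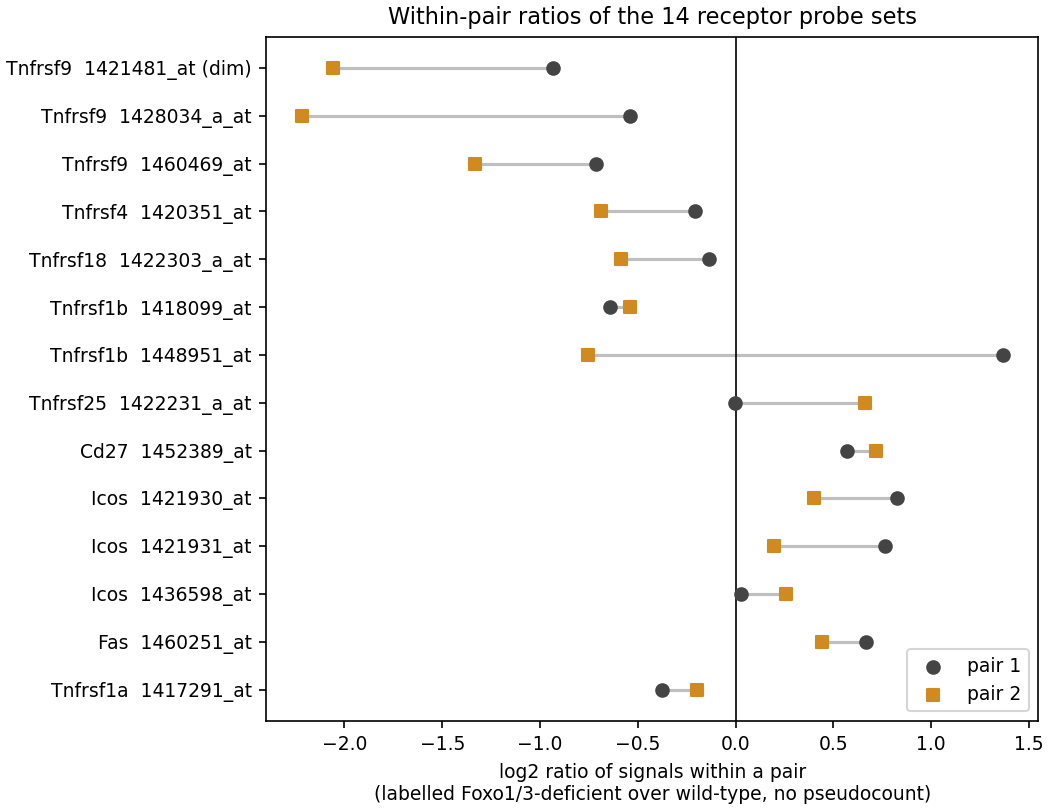
Log2 ratio of signals, labelled Foxo1/3-deficient over wild-type, within pair 1 (circles) and pair 2 (squares) for each of the 14 probe sets, with no pseudocount. Of the 14, 7 lay below 0 in both pairs and 5 above 0 in both, and the probe sets 1448951_at of Tnfrsf1b and 1422231_a_at of Tnfrsf25 lay on opposite sides.

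Icos encodes ICOS, a relative of CD28 that activated and effector Treg cells carry. Its 3 probe sets gave differences of unlike size. The brightest, 1436598_at, read 9647 and 12332 on the labelled-deficient arrays against 9451 and 10332 on the wild-type arrays. These groups overlapped, and the log2 difference was 0.14 ± 0.19 (SE, 95% interval -0.29 to 0.58; limma adjusted p = 0.873, and 0.709 in the blocked fit). The probe set 1421930_at read 3263 and 2430 against 1841 and 1843, with both labelled-deficient arrays above both wild-type arrays and ratios of 1.77 in pair 1 and 1.32 in pair 2. In the fit over probe sets it stood at 0.61 ± 0.24 (adjusted p = 0.391, and 0.0966 with the block). The probe set 1421931_at read 2386 and 746 against 1406 and 652, so that pair 1 was brighter than pair 2 by 3.20 times among labelled-deficient and 2.16 times among wild-type arrays. All 3 lay above 0 in both pairs, but none passed either fit, and the brightest turned to -0.035 without labelled-deficient replicate 2.

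Fas and Tnfrsf1a encode death-domain receptors, Fas for FasL and TNFR1 for TNF, and differed in sign. Fas read 1258 and 847 on the labelled-deficient arrays against 791 and 624 on the wild-type arrays. Both labelled-deficient arrays were above both wild-type arrays, with ratios of 1.59 in pair 1 and 1.36 in pair 2. The log2 difference was 0.54 ± 0.28 (SE, 95% interval -0.11 to 1.20; limma adjusted p = 0.515, and 0.0734 in the blocked fit). Tnfrsf1a read 1055 and 793 against 1369 and 911. Its groups overlapped, with ratios of 0.771 and 0.871 in pairs 1 and 2. The log2 difference was -0.28 ± 0.29 (95% interval -0.95 to 0.38; limma adjusted p = 0.817, and 0.406 with the block), and it was 0.0062 without wild-type replicate 1. Tnfrsf1a and Cd27, which differed in sign, lie on chromosome 6 with 3 protein-coding genes between them. The 5 receptors on chromosome 4 were Tnfrsf1b, Tnfrsf9, Tnfrsf25, Tnfrsf4 and Tnfrsf18, and of these Tnfrsf25 alone had a positive log2 difference.

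**Figure D3:**
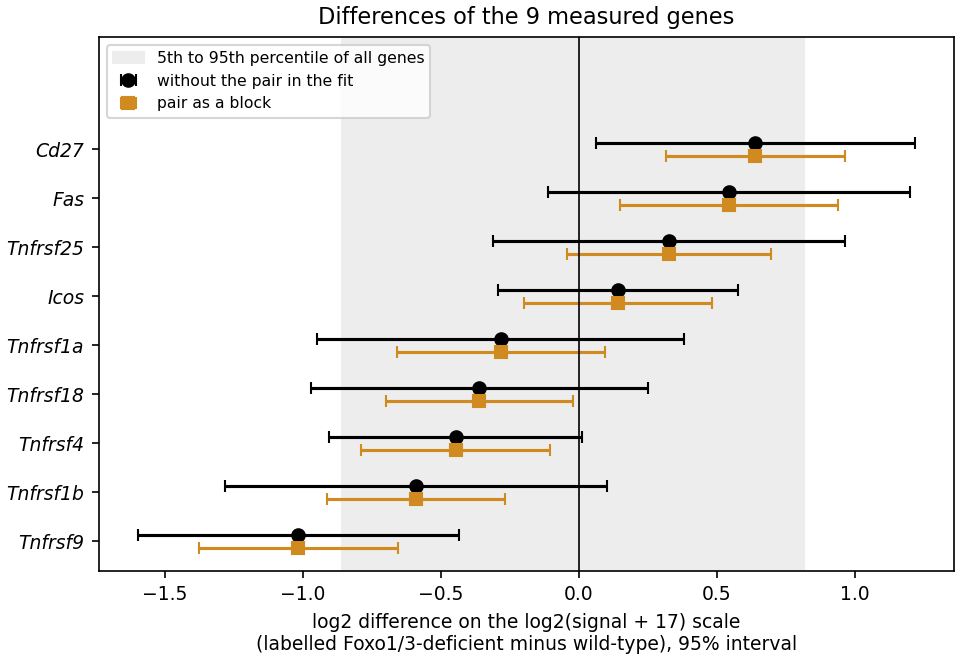
Log2 difference, labelled Foxo1/3-deficient minus wild-type on the log2(signal + 17) scale, of the 9 genes with 95% intervals from the fit without the pair (black circles) and from the blocked fit (orange squares); grey spans the 5th to 95th percentile of all genes, -0.86 to 0.81. Tnfrsf9 at -1.02 was the only one of the 9 outside that span, and the blocked intervals are narrower for every gene.

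Of 17 TNF family ligands listed 13 had a probe set and 12 were tested. Of the 12, 10 had a log2 difference below 0, the ligands of Cd27 and Fas among them. Over all 12115 genes 6098 lay below 0. By limma 2 of the 12 fell and 0 rose, where 1.35% of all genes fell, and in the blocked fit 7 fell and 0 rose, where 6.36% of all genes fell. Their median log2 difference was -0.94, against -0.0034 over all genes. Those that fell in the fit without the block were Tnfsf9 and Tnfsf14. At an unadjusted p under 0.05 there were 7, against 13% of all genes. Both counts of 7 include Cd70 and Tnfsf13b, whose mean signals on the labelled-deficient arrays were under the filter level. Tnfsf9, the ligand of 4-1BB, read 76.4 and 52.7 on the labelled-deficient arrays against 466 and 399 on the wild-type arrays. Ligand and receptor of 4-1BB were thus both below the wild-type arrays in both pairs, and the ligand's log2 difference was -2.47 ± 0.32 (limma adjusted p = 0.0116). Tnfsf14, which encodes LIGHT, a ligand of the herpesvirus entry mediator and the lymphotoxin beta receptor, read 121 and 255 against 715 and 1038 (log2 -2.18 ± 0.38, limma adjusted p = 0.0329). Without labelled-deficient replicate 1 Tnfsf14 missed the threshold (0.0772), as it did without the intensity trend (0.0788), and without the filter on dim probe sets both did (0.0540 for Tnfsf9 and 0.0961 for Tnfsf14).

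The other ligands of the measured receptors are given because they pair with them, after their values were seen. Cd70, the ligand of CD27, read 39.1 and 8.76 on the labelled-deficient arrays against 138 and 159 on the wild-type arrays. Both labelled-deficient signals lay under the filter level of about 40.5, so Cd70 was tested only through its wild-type signals, and no size of difference is given. Fasl, the ligand of Fas, read 689 and 798 against 1494 and 2013 (log2 -1.21 ± 0.25, limma adjusted p = 0.0538, and 1.05e-04 with the block), opposite in sign to its receptor. Tnf read 273 and 269 against 435 and 508 (log2 -0.76 ± 0.27, limma adjusted p = 0.252, and 0.0551 with the block). Lta (log2 -0.08) and Icosl (-0.22), ligands of the TNF receptors and of ICOS, and Tnfsf4 (-0.31), the ligand of OX40, passed neither fit. Besides those named, Tnfsf10, which encodes TRAIL (log2 -1.12), and Tnfsf11, which encodes RANKL (-0.57), fell with the block. Tnfsf13b, which encodes BAFF, read 12.6 and 56.2 against 167 and 198, and its mean on the labelled-deficient arrays, like that of Cd70, was under the filter level. Without these 2 genes, a choice made after seeing the data, 5 of 10 ligands fell with the block and the median log2 difference was -0.67.

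**Figure D4:**
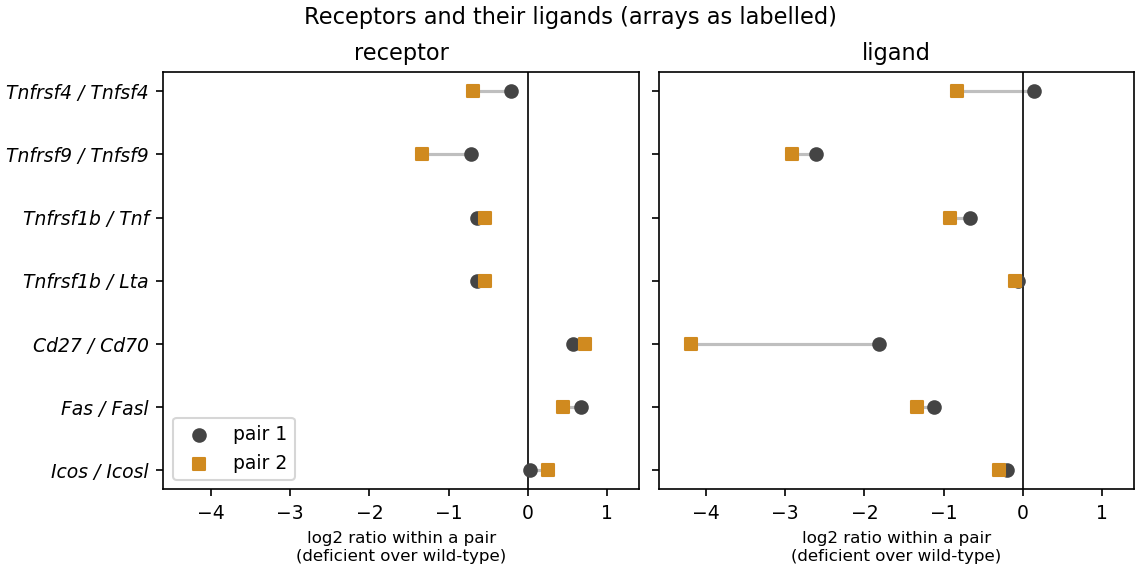
Log2 ratio, labelled Foxo1/3-deficient over wild-type, within pair 1 (circles) and pair 2 (squares) for receptors at left and their ligands at right, with no pseudocount. Tnfrsf9 and Tnfsf9 were both below 0 in both pairs, while Cd27 and Fas were above 0 and Cd70 and Fasl below it. The Cd70 points rest on labelled-deficient signals of 39.1 and 8.76, under the filter level, so their distance from 0 is no measure of size.

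Inside the cell these receptors signal through TRAF adaptors to NF-kB. Of 16 adaptor genes tested 0 rose and 0 fell by limma without the pair (4 had an unadjusted p under 0.05, against 13% of all genes). In the blocked fit 4 rose and 1 fell, where 5.23% of all genes rose and 6.36% fell. The median log2 difference was 0.10. The genes named next were chosen after their values were seen, as those that passed with the block. Traf2, an adaptor of TNFR2 and 4-1BB, read 1040 and 809 on the labelled-deficient arrays against 1498 and 1517 on the wild-type arrays (log2 -0.71 ± 0.24, limma adjusted p = 0.219, and 0.0122 with the block). Traf5, an adaptor of OX40 and CD27, read 1768 and 1920 against 978 and 1514 (log2 0.59 ± 0.26, adjusted p = 0.416, and 0.0343 with the block). Map3k14, which encodes the NF-kB-inducing kinase NIK, read 345 and 346 against 192 and 152 (log2 0.95 ± 0.29, adjusted p = 0.174, and 0.0348 with the block). Traf3ip3 (0.62) and Tnfaip8l2 (0.99), which encodes the inhibitory protein TIPE2, also rose with the block.

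Of the 16 subunits and inhibitors of NF-kB tested 11 had a log2 difference below 0, as had 6098 of all 12115 genes. The median log2 difference of the 16 was -0.27. By limma without the pair 0 passed, though 6 had an unadjusted p under 0.05 (13% of all genes did). In the blocked fit 5 fell and 1 rose, where 6.36% of all genes fell and 5.23% rose. The 5 that fell with the block were Bcl3, a nuclear partner of NF-kB (-1.34), Nfkb2, the precursor of the p52 subunit (-1.03), Nfkbie, an inhibitor of NF-kB (-0.86), Relb, a subunit that pairs with p52 (-0.73), and Tnfaip3, which encodes the inhibitory enzyme A20 (-0.61). Nfkb2 read 409 and 311 on the labelled-deficient arrays against 752 and 740 on the wild-type arrays. Ikbkb, which encodes the kinase IKK beta, rose with the block (0.52). Of the non-canonical pathway, Nfkb2 and Relb were lower and Map3k14, the gene of its kinase NIK, was higher. These genes were set side by side after their values were seen. They passed only with the block (limma adjusted p = 0.106, 0.236 and 0.174 without it), and the activity of the pathway was not measured.

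Among 10 genes of the CD28 family and its ligands, Icos included, 1 fell by limma without the pair and 0 rose, with a median of -0.17. Over all genes 1.35% fell and 1.21% rose in that fit. Pdcd1, which encodes the inhibitory receptor PD-1, read 1135 and 1277 on the labelled-deficient arrays against 3292 and 3882 on the wild-type arrays (log2 -1.56 ± 0.21, limma adjusted p = 0.0146). It missed the threshold without labelled-deficient replicate 1 (0.0511) and without the intensity trend (0.0576). In the blocked fit 2 of the 10 rose and 2 fell, where 5.23% of all genes rose and 6.36% fell. Those that rose were Cd28, the principal costimulatory receptor of naive T cells (log2 1.02), and Btla, an inhibitory receptor (0.90). Pdcd1 and Cd274, which encodes the PD-1 ligand PD-L1 (-0.65), fell. Cd28 read 7360 and 10829 against 4322 and 4449, so both labelled-deficient arrays lay above both wild-type arrays. Of the 10 other TNF receptor genes tested none passed either fit by limma or had an unadjusted p under 0.05, and their median was -0.016. Of these, Tnfrsf13b (TACI) read 1939 and 1605 against 1975 and 1584, a log2 difference of -0.0040.

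**Figure D5:**
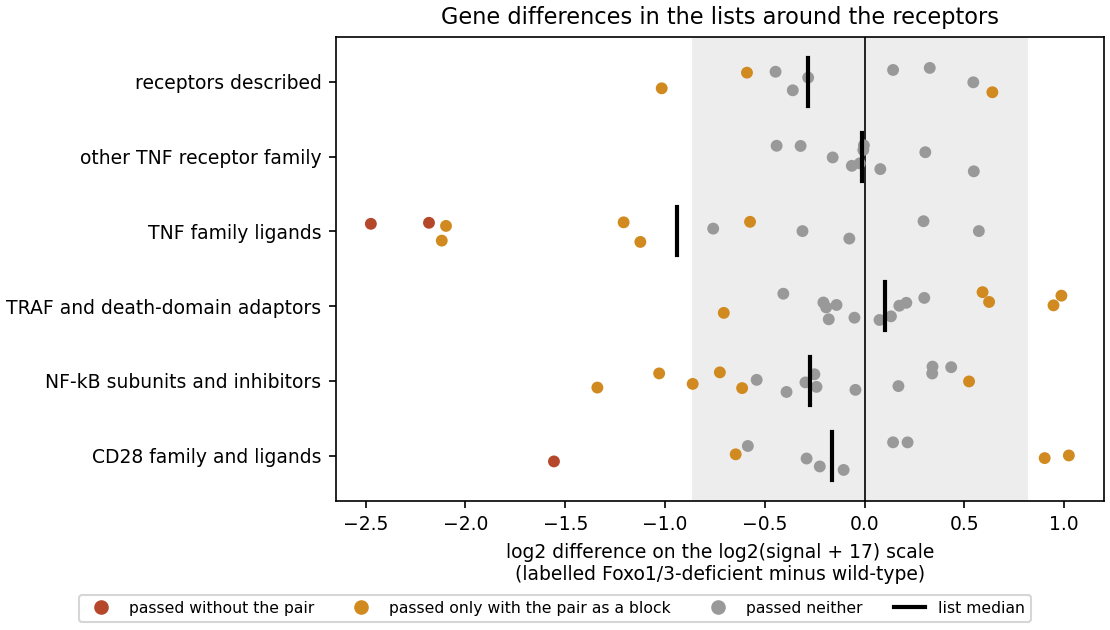
Log2 difference, labelled Foxo1/3-deficient minus wild-type on the log2(signal + 17) scale, of each tested gene in the receptors described and in the 5 lists around them, with list medians as black bars; red genes passed without the pair, orange ones only in the blocked fit, and grey spans the 5th to 95th percentile of all genes. The ligands have the lowest median, -0.94, and hold 2 of the 3 genes that passed without the pair. Their median was -0.67 without Cd70 and Tnfsf13b, whose mean signals on the labelled-deficient arrays were under the filter level.

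Several of these receptors are also carried by B cells, myeloid cells, CD8 T cells and natural killer cells, whose markers were measured beside them. Of 11 macrophage and monocyte markers on the array 10 were tested and 0 passed by limma (4 at an unadjusted p under 0.05, against 13% of all genes). Of the 10, 8 lay above 0, as did 6017 of all 12115 genes, and their median log2 difference was 0.57. In the blocked fit 4 rose (Adgre1, C1qb, C1qc and Csf1r) and 1 fell (Ccr2), where 5.23% of all genes rose and 6.36% fell. Of those that rose, Csf1r, the brightest, read 6676 and 5165 on the labelled-deficient arrays against 4749 and 2987 on the wild-type arrays. The summed signal of the 11 markers was 15700 and 11871 on the labelled-deficient arrays and 20001 and 10733 on the wild-type arrays. Of this sum Ccr2, a receptor of effector T cells too, gave 2087 and 2296 against 11119 and 4869. Of 10 B cell markers tested 9 lay above 0 and none passed by limma (1 at an unadjusted p under 0.05), while in the blocked fit Ms4a1 rose (log2 0.89) and Cd22 fell (-0.75), with summed signals of 4111 and 2980 against 4373 and 1862, and Pax5 at 44.7 at most. The sums of both lists were higher in pair 1 than in pair 2 for either label, as were 6 of the 9 receptors, Tnfrsf1b, Fas, Cd27, Tnfrsf1a, Tnfrsf25 and, by 3703 over 3678 on the wild-type arrays, Tnfrsf9. Of 6 CD8 T cell markers tested 2, Klrc1 and Eomes, fell by limma, where 1.35% of all genes fell. The summed signal of the CD8 list was 1471 and 1840 against 3037 and 3313. Of this sum Klrc1 gave 67.5 and 92.3 against 690 and 762, and Eomes 356 and 310 against 1036 and 1425. The other 4 tested passed neither fit: Cd8a (log2 -0.013), Cd8b1 (0.44), Klrd1 (-0.072) and Klrk1 (-0.55). Cd8a was at 232 at most and Cd8b1 at 444 at most. Of the natural killer cell markers 2 of 8 were tested, Tyrobp and Fcer1g, and neither passed either fit by limma. Tyrobp read 1021 and 1295 on the labelled-deficient arrays against 1278 and 396 on the wild-type arrays. Fcer1g read 265 and 246 against 411 and 106. Both genes were lower on the labelled-deficient array in pair 1 and higher in pair 2, with a median log2 difference of 0.46. Ncr1, not tested, was at 37.2 at most. Of 6 dendritic cell, 5 neutrophil and 4 erythroid markers tested, 0 passed by limma without the pair, and 1 erythroid marker had an unadjusted p under 0.05. With the block 1 of the neutrophil markers, Mpo, fell (limma adjusted p = 0.0194). It read 44.8 and 33.3 on the labelled-deficient arrays, with a mean under the filter level, against 495 and 57.0 on the wild-type arrays. The part of these cells in the receptor signals was not tested.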

How the data were processed

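The deposited values are probe-set intensities on a linear scale from 4 single-sample arrays, made by the authors with MAS5, per the submitters' processing notes; the sources used here give no version, settings or genome build. RNA was total RNA labelled with biotin, per the labels' protocols. The 2% trimmed mean was 500.003 on each array, and no array was rescaled. Detection calls were not analysed here, and the number of arrays limits precision. The platform annotation (possibly outdated) assigned 1 symbol to 34945 probe sets, several to 932 and none to 9160, besides 64 controls.

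Signals were tested as log2(signal + 17), 17 being the 25th percentile of all values; this understates changes of dim genes. Probe sets under the 40th percentile of mean log2 (a signal of about 40.5) were left out, and a gene was read from its probe set of highest mean, which left 12115 genes. All kept probe sets (27022) were also fitted. The comparison used lmFit and eBayes of limma 3.58.1 (intensity trend, two-sided) under R 4.3.3, adjusted by Benjamini-Hochberg over all genes or probe sets, at 0.05. The fit had 2 residual and 5.69 prior degrees of freedom. With 2 arrays on either side an exact test reaches 0.333 at best. The scripts were tested on simulated data.

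The titles call the number a pair; deviations from group means correlated across genes between same-numbered arrays at r = 0.367, over 2 pairs. The fit without the pair was the main one. The receptors and lists were chosen with earlier results of these data known. By rule the text names all receptors, Foxo1, Foxo3, Foxp3 and Ctla4, and of each list up to 6 genes past the threshold of the gene fit, which were Tnfsf9, Tnfsf14 and Pdcd1. Every other list gene and marker named was chosen after its values were seen. No receptor passed, so no genes of most similar profile were sought.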

Additional observations from a re-analysis of the deposited data

How the results depend on the processing

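The 9 receptor genes were recomputed under 13 alternatives (pseudocount, filter, choice of probe set, trend, quantile normalization, pair, and each array left out). Other than with the replicate block, none passed the threshold under any of them, so 0 were higher and 0 lower; with the block 1 was higher and 2 lower. Signs turned in 3 cases: Tnfrsf1a to 0.0062 without wild-type replicate 1, Tnfrsf25 to -0.042 without wild-type replicate 2 and Icos to -0.035 without labelled-deficient replicate 2. With 1 array left out Tnfrsf1a ran from -0.57 to 0.0062, Tnfrsf25 from -0.042 to 0.69 and Icos from -0.035 to 0.32. Tnfrsf9 ran from -1.35 (its first-listed kept probe set, limma adjusted p = 0.328) to -0.71 (without labelled-deficient replicate 2). Its adjusted p of 4.6e-04 was that of the block, at -1.02. Tnfrsf1b ran from -0.95 to -0.13 and Cd27 from 0.38 to 0.90. Over all genes, 147 were higher and 164 lower, against 634 and 770 with the block, 45 and 44 without the filter, 57 and 54 without the trend, and 67 to 278 and 82 to 266 with 1 array left out. Among the receptor probe sets the block called 1460469_at (-1.02) and 1428034_a_at (-1.35), both of Tnfrsf9, and no other of 6 alternatives called any. The block could not be fitted with an array left out, since no residual degree of freedom remains. The causes of these shifts were not tested. Dim signals limit the values of 1448951_at and 1421481_at.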

Other observations

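Arrays of 1 label differed between the pairs by probe set. On the labelled-deficient arrays, pair 2 over pair 1 was 1.15 for the probe set 1428034_a_at of Tnfrsf9 (450 against 391) and 0.646 for its brightest, 1460469_at (1459 against 2257). On the wild-type arrays the same ratios were 3.68 (2095 against 570) and 0.993 (3678 against 3703), so the brightest probe set did not show the wild-type gap of the other.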
